A study of Mus musculus with 6 samples.

Results

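Expression of 7 chemokine ligand genes that T cells can make was compared between Tregs with and without Zfp335. The genes were Ccl1, Ccl22, Ccl3, Ccl4, Ccl5, Xcl1 and Cxcl10, chosen by name as chemokine ligands, and all 7 were found among the 13709 rows of the count table. The data came from bulk RNA-Seq of sorted Tregs (CD4+YFP+CD25+), with 3 WT and 3 KO samples from C57BL/6 mice that had not reached weaning age, per the study's methods. WT mice carried Foxp3Cre alone and KO mice carried Foxp3Cre with Zfp335fl/fl, so that both groups made Cre and YFP from the Foxp3 locus. Deletion was thus limited to cells that had switched on Foxp3, and the rest of the immune system in KO mice kept Zfp335. The paper reports that KO mice develop systemic autoimmune inflammation early in life. An effect of the deletion within Tregs and an effect of inflamed surroundings cannot be told apart in these samples. The labels named both lymph nodes and spleen as the source and did not say whether each sample came from a single mouse, so p-values measure the spread between these samples only.

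Chemokines are small secreted proteins that guide cells along a gradient by binding G protein-coupled receptors. They are named for the spacing of conserved cysteines near the start of the protein, as CC, CXC or XC ligands. Ccl3, Ccl4 and Ccl5 are typical products of activated and cytotoxic lymphocytes, and Xcl1 calls dendritic cells that carry Xcr1. Ccl1 and Ccl22 are ligands of Ccr8 and Ccr4, receptors that Tregs use to enter tissue, and Cxcl10, a product of interferon-stimulated cells, draws cells with Cxcr3 to sites of type 1 inflammation.

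The samples held 32032631 to 40728419 counts, and a level of 3 counts, taken as the limit of detection for counting error alone, was 0.0747 to 0.0913 CPM. CPM is the count of a gene scaled to a common library size. Zfp335 fell from 99.4 ± 4.50 CPM in WT to 38.3 ± 1.66 CPM in KO (SD, n = 3 each), in the direction of the labels, and the lowest of Foxp3, Il2ra, Ctla4, Ikzf2, Cd4 and Cd3e in any sample was 317 CPM. WT replicate 3 stood apart from WT replicates 1 and 2, at -58.9 against 22.1 and 34.4 on the second principal component (18.4% of the variance), while the KO samples lay between 0.419 and 1.27. The biological coefficient of variation was 0.263 within WT, 0.126 for WT replicates 1 and 2, and 0.0703 within KO. Calls that changed without WT replicate 3, and fold changes of called or listed genes that it moved by over 1.5 times, are therefore given both ways where printed.

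Between WT and KO Tregs, 4 of the 7 ligands rose, Ccl3, Ccl4, Ccl1 and Ccl22, and Xcl1 fell at the edge of the threshold. Ccl5 and Cxcl10 were not called. Calls followed the cutoffs of the study's methods, namely a fold above 1.5 with p under 0.05 and an adjusted p under 0.1, here from edgeR. Over all 13594 genes tested, 24.4% were called, 11.9% as higher and 12.5% as lower in KO. Every KO sample lay above every WT sample for 4 ligands, against 26.2% of all genes, and below for 1 ligand, against 27.6% of all genes, so 5 ligands had groups without overlap, against 53.8% of all genes. The median log2 fold change was 1.54 over the ligands and -0.04 over all genes. Ccl3, Ccl4 and Ccl1 did not reach the minimum count for testing, 10, in all WT samples and were tested because of their KO samples. Genes so low in WT are tested only where KO is higher, so their rises cannot be weighed against the shares and median over all genes. In bulk samples, fewer cells that make a transcript and less of it per cell cannot be told apart.

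**Figure D1:**
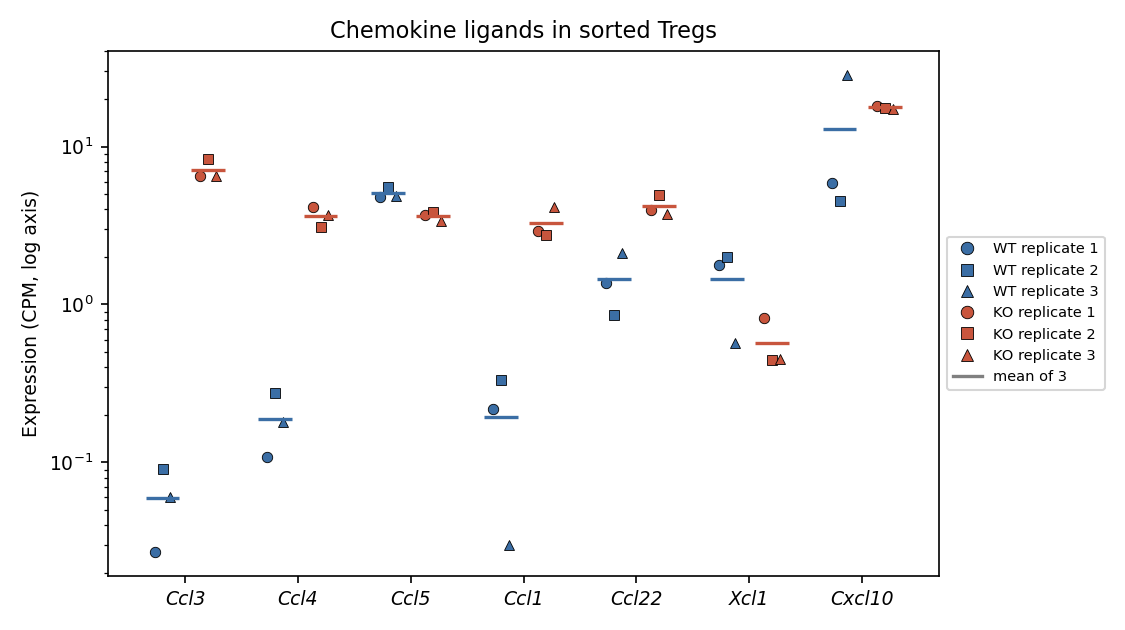
Expression of the 7 ligands in each sample, in CPM on a log axis, with WT in blue and KO in red, a marker shape per replicate, and a line at the mean of 3. The KO samples lie above all WT samples for Ccl3, Ccl4, Ccl1 and Ccl22, and WT replicate 3 lies above the KO samples for Cxcl10 and below KO replicate 1 for Xcl1.

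The CC ligands typical of cytotoxic lymphocytes were examined first. Ccl3, which encodes MIP-1 alpha, had 1, 3 and 2 counts in WT replicates 1 to 3 and 237, 337 and 228 counts in KO replicates 1 to 3. This was 0.0272, 0.0913 and 0.0601 CPM in WT and 6.49, 8.39 and 6.47 CPM in KO. Ccl3 was thus at or under the limit of detection in each WT sample and well above it in each KO sample. The log2 fold change of Ccl3 came to 6.84 (SE 0.39, by edgeR adjusted p 2.74e-05). Since the WT counts were so few, this value moves with the prior count of the fit, and it was 5.97 with a prior count of 2. The ratio of pooled counts, 802 in KO against 6 in WT, was 122.9 after scaling, with an exact 95% counting interval of 56.2 to 336.

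Ccl4, which encodes MIP-1 beta, lies next to Ccl3 on chromosome 11, on the opposite strand. It was at 0.109, 0.274 and 0.180 CPM in WT replicates 1 to 3 and at 4.13, 3.09 and 3.66 CPM in KO replicates 1 to 3. The lowest KO sample was above the highest WT sample, and the log2 fold change of Ccl4 came to 4.26 (SE 0.41, by edgeR adjusted p 0.000277). Per kilobase of transcript, the ratio of Ccl3 to Ccl4 was 1.35, 2.34 and 1.52 in the KO samples, so Ccl3 was the more abundant of the pair in each of them. The WT counts, 4 to 9 for Ccl4, were too few for a firm ratio. The RefSeq spans of Ccl3 (chr11:83647843-83649378) and Ccl4 (chr11:83648624-83664683) overlap, whereas the GENCODE span of Ccl4 starts at 83662584. Whether reads were counted by strand was not stated, so some counts of either gene may belong to the other.

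Ccl5, which encodes RANTES, did not share this rise. It was at 4.81, 5.57 and 4.90 CPM in WT and at 3.69, 3.86 and 3.38 CPM in KO replicates 1 to 3. The highest KO value lay under the lowest WT value. The log2 fold change of Ccl5 came to -0.48 (SE 0.19, by edgeR p 0.0361, adjusted p 0.0813), a KO level of 71.5% of WT, and it did not reach the fold cutoff. Ccl5 (chr11:83525778-83530518) lies on the same chromosome as Ccl3 and Ccl4, and all 3 of its KO samples were lower where theirs were higher.

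Ligands of the Treg homing receptors were examined next. Ccl1 (chr11:82176666-82179812), a ligand of Ccr8, was at 0.217, 0.335 and 0.0300 CPM in WT and at 2.93, 2.76 and 4.14 CPM in KO replicates 1 to 3. WT replicate 3 held 1 count, against 8 and 11 in WT replicates 1 and 2, and all KO samples held 107 to 146 counts. The log2 fold change of Ccl1 came to 4.05 (SE 0.62, by edgeR adjusted p 0.00182), 3.56 without WT replicate 3 (adjusted p 1.16e-05) and 4.65 without WT replicate 2 (adjusted p 0.00372).

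Ccl22 (chr8:94745684-94751388), a ligand of Ccr4, was at 1.36, 0.852 and 2.13 CPM in WT and at 3.97, 4.95 and 3.74 CPM in KO replicates 1 to 3. The groups did not overlap, and WT replicate 3 was the highest WT sample. Ccl22 rose by a log2 fold change of 1.54 (SE 0.36, edgeR adjusted p 0.0121), which is 2.91-fold and the smallest of the 4 rises. Without WT replicate 3 the value was 1.92 (adjusted p 0.000205).

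Xcl1 (chr1:164931644-164935522), which encodes lymphotactin, was the one ligand called lower. It was at 1.77, 2.01 and 0.571 CPM in WT and at 0.821, 0.448 and 0.454 CPM in KO replicates 1 to 3. WT replicate 3 was below KO replicate 1, so the groups overlapped. The log2 fold change of Xcl1 came to -1.33 (SE 0.56, by edgeR p 0.0469, adjusted p 0.0998), and the call was lost when any single sample other than WT replicate 3 was left out, at adjusted p values of 0.119 to 0.248. Without WT replicate 3 the log2 fold change was -1.72 (adjusted p 0.00805). Xcl1 overlaps the noncoding gene Gm20743 on the other strand in GENCODE.

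Cxcl10 (chr5:92346638-92348889), the one CXC ligand of the group, depended most on a single library. It was at 5.84, 4.51 and 28.5 CPM in WT and at 18.2, 17.6 and 17.2 CPM in KO replicates 1 to 3. WT replicate 3 was 5.52 times the mean of the other WT samples and above all KO samples, whereas WT replicates 1 and 2 were below all KO samples. The log2 fold change of Cxcl10 came to 0.45 (SE 0.62, by edgeR adjusted p 0.606) over all samples and 1.76 (adjusted p 1.23e-07) without WT replicate 3. The number of ligands called was then 6 of 7, 5 of them higher, where 26.8% of all genes were called. Art3 overlaps Cxcl10 on the other strand. It was at 0.255 to 2.01 CPM over the samples, below Cxcl10 in each of them, and was called lower in KO (log2 fold change -1.70, edgeR adjusted p 0.0330).

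**Figure D2:**
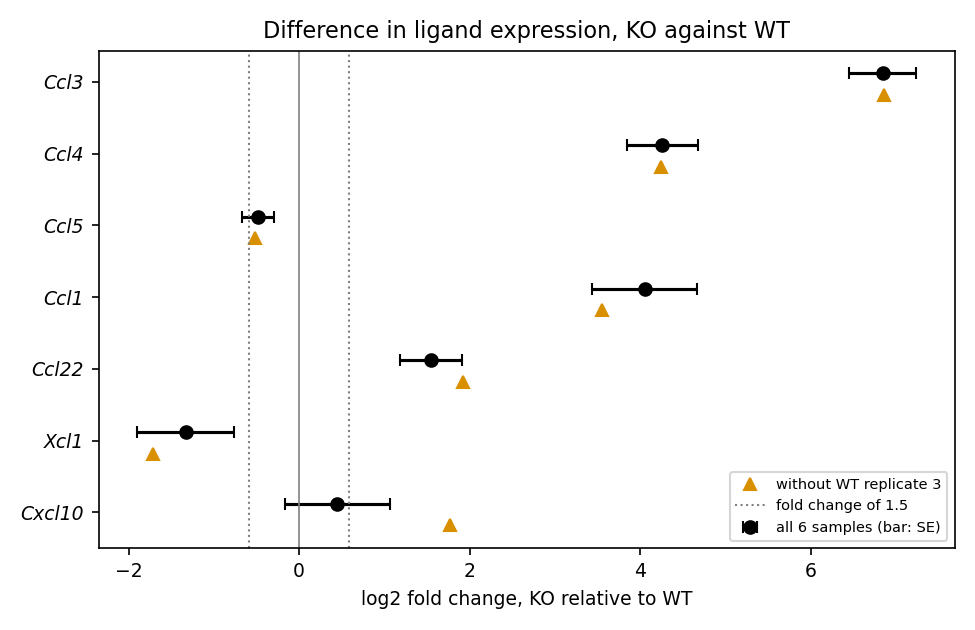
Log2 fold change of each ligand in KO relative to WT, with its SE as a bar for all 6 samples (circles) and without WT replicate 3 (triangles). Removing WT replicate 3 moves Cxcl10 from 0.45 to 1.76, past the fold cutoff of 1.5 marked by dotted lines, and leaves Ccl3 near 6.86.

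Sequence before the transcription start is shown for Ccl3, Ccl1 and Ccl22, which rose, and for Cxcl10, which differed most between the WT samples in CPM. RefSeq (GRCm38.p6) gave a promoter window of 250 bases before to 50 after the start for 5 ligands, Ccl1, Ccl22, Ccl3, Xcl1 and Cxcl10. Each window was searched on both strands for GGG and CC with any 5 bases between them (NF-kB), TGANTCA (AP-1), GAAA repeated after any 2 bases (interferon response), GGTGTGA (T-box half-site) and TGGAAA (NFAT), and capitals mark the matches. The 250 bases before the start read as follows.
Ccl3, chr11:83649379-83649628, minus strand: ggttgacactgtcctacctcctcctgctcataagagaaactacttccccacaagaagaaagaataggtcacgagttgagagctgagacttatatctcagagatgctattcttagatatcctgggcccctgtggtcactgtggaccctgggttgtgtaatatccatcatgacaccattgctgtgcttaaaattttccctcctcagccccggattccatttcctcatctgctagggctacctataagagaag
Ccl1, chr11:82179813-82180062, minus strand: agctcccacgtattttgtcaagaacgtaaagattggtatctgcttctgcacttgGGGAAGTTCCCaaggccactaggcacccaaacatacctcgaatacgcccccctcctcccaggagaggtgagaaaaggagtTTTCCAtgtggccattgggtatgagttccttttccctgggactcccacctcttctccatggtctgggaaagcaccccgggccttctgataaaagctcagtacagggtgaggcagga
Ccl22, chr8:94745434-94745683, plus strand: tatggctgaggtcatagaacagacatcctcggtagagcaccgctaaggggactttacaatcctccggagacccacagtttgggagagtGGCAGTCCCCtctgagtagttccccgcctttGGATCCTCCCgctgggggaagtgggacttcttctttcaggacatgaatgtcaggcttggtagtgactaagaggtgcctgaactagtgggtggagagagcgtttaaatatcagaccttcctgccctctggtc
Cxcl10, chr5:92348890-92349139, minus strand: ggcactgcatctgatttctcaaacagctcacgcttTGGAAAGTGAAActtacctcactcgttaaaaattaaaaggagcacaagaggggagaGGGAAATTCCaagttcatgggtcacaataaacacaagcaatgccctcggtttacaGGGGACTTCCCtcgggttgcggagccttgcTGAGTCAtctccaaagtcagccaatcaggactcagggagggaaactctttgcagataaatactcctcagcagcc

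Cxcl10 held the most matches, namely the interferon response letters from position -213, with the NFAT letters from -215 overlapping them, NF-kB letters from -159 and, overlapping each other, from -104 and -103, and AP-1 letters from -74. Ccl1 held overlapping NF-kB letters from -196 and -195 and NFAT letters from -116. Ccl22 held NF-kB letters from -162 and -131, both read on the other strand. Ccl3 held none of the 5 motifs in this window, and Xcl1 held the T-box letters from -188. Over all 32851 windows of this length, 50.8% held the NF-kB letters, 21.4% the NFAT letters, 7.81% the AP-1 letters, 3.98% the T-box letters and 3.44% the interferon response letters. A match gives the letters present and not a site of binding.

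The make-up of ligand expression was compared per length, as CPM per kilobase of the longest coding transcript in GENCODE M21. In WT, Cxcl10 (9.58 ± 9.98) and Ccl5 (9.57 ± 0.78) led and overlapped, followed by Xcl1 (2.77 ± 1.47), Ccl22 (0.653 ± 0.291), Ccl1 (0.318 ± 0.252), Ccl4 (0.284 ± 0.126) and Ccl3 (0.0777 ± 0.0419), all as mean ± SD of 3 samples. The place of Cxcl10 in WT rested on WT replicate 3, with 4.32, 3.33 and 21.1 CPM per kilobase in WT replicates 1 to 3. Without that sample its mean was 3.82, below Ccl5 (9.76) and close to Xcl1 (3.61), whose values overlapped it. Among the other neighbors in the WT order, Ccl22 overlapped Ccl1 and Ccl1 overlapped Ccl4. In KO the order was Cxcl10 (13.1 ± 0.35), Ccl3 (9.29 ± 1.44), Ccl5 (6.85 ± 0.46), Ccl4 (5.49 ± 0.79), Ccl1 (5.36 ± 1.23), Ccl22 (1.91 ± 0.29) and Xcl1 (1.10 ± 0.41). Of these neighbors, Ccl4 and Ccl1 alone overlapped. Ccl3 was thus the last of the 7 in WT and the second in KO.

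Summed over the 7 ligands, the level was 17.9, 19.1 and 32.7 CPM per kilobase in WT replicates 1 to 3 and 43.3, 43.5 and 42.4 in KO replicates 1 to 3. Ccl5 made up 50.5%, 54.8% and 28.1% of this sum in the WT samples and 14.96% to 16.7% in the KO samples. Ccl3 made up 0.198% to 0.624% in WT and 19.6% to 25.2% in KO. In WT replicate 3, Cxcl10 alone made up 64.4%, against 17.4% and 24.1% in the other WT samples and 29.9% to 31.0% in KO.

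**Figure D3:**
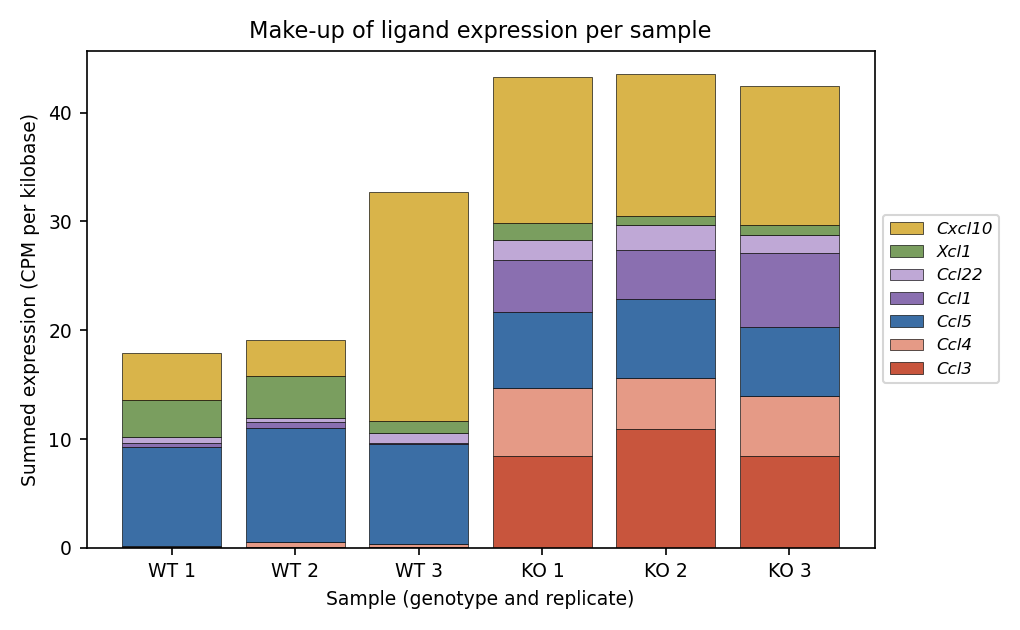
Summed expression of the 7 ligands per sample, in CPM per kilobase of transcript, split by ligand. Ccl5 and Cxcl10 fill most of each WT bar, and the KO bars, 42.4 to 43.5 high, hold Ccl3, Ccl4 and Ccl1 as well.

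Receptors of these ligands were then examined in the same cells, for 6 genes. Of these, 2 rose (Ccr1 and Cxcr3), 3 fell (Ccr3, Ccr4 and Ccr8) and Xcr1 was not called, where 24.4% of all genes were called. The median log2 fold change was -1.07.

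For Ccl3, ligand and receptor rose together. Ccr1, which binds Ccl3 and Ccl5, was at 0.163, 0.700 and 1.05 CPM in WT and 11.3, 9.76 and 10.4 CPM in KO (edgeR log2 fold change 4.05, SE 0.50, adjusted p 0.000728). Ccr3, another receptor of Ccl5 that is best known on eosinophils, fell from 4.39 ± 1.36 to 1.34 ± 0.12 CPM (log2 fold change -1.70, edgeR adjusted p 0.00413).

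For the Treg homing ligands, ligand and receptor moved in opposite directions. Ccr8 was at 69.2, 68.1 and 64.4 CPM in WT and 30.2, 28.9 and 26.5 CPM in KO, with no overlap (edgeR log2 fold change -1.24, SE 0.08, adjusted p 4.69e-05), while its ligand Ccl1 rose. Ccr4 was at 73.2, 77.4 and 114.7 CPM in WT and 32.2, 29.4 and 31.3 CPM in KO (edgeR log2 fold change -1.51, SE 0.17, adjusted p 0.000487), while its ligand Ccl22 rose. Cxcr3, the receptor of Cxcl10, was at 22.5, 25.3 and 22.0 CPM in WT and 44.3, 46.6 and 46.1 CPM in KO (edgeR log2 fold change 0.97, SE 0.09, adjusted p 0.000193). Xcr1, the receptor of Xcl1 and a dendritic cell gene, stayed under 0.5 CPM in all samples (edgeR log2 fold change -0.90, SE 0.61, adjusted p 0.288).

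**Figure D4:**
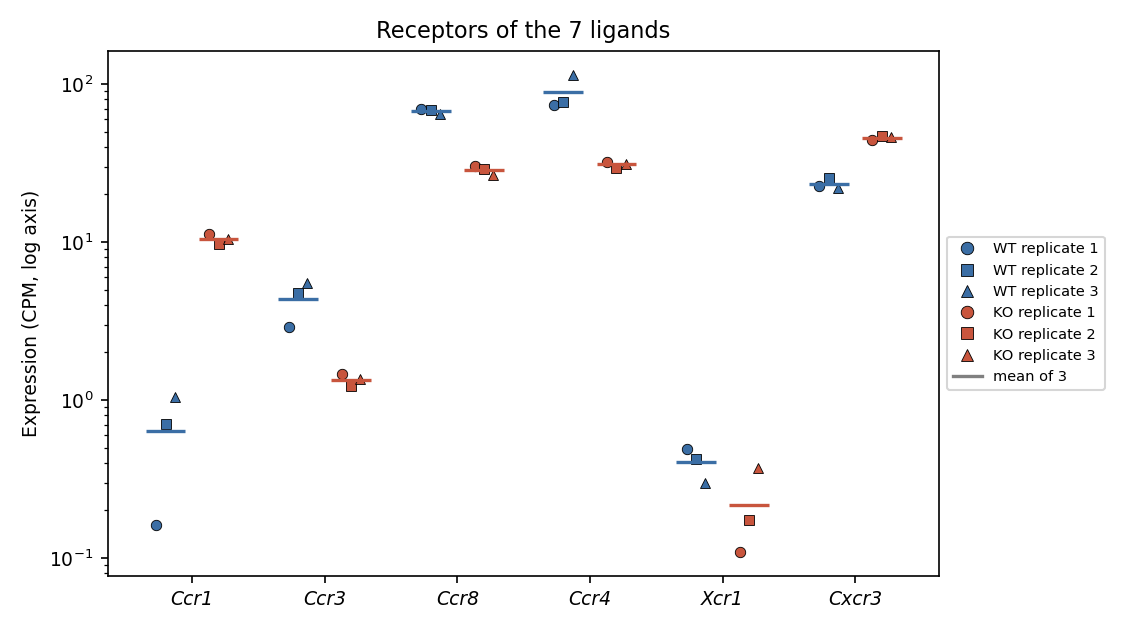
Expression of the receptors of the 7 ligands in each sample, in CPM on a log axis, with WT in blue and KO in red and a line at the mean of 3. Ccr8 and Ccr4 lie lower in all KO samples, and Ccr1 and Cxcr3 lie higher.

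Among other chemokine receptors, 10 genes were tested, of which 2 rose and 2 fell, where 24.4% of all genes were called (median log2 fold change -0.04, and 0.17 without WT replicate 3). Cxcr6, a receptor of activated T cells resident in tissue, rose from 15.2 ± 2.29 to 135.4 ± 12.4 CPM (log2 fold change 3.16, edgeR adjusted p 7.45e-06), and Ccr2, a receptor of inflammatory chemokines, rose from 48.3 ± 27.6 to 101.5 ± 2.96 CPM (1.07, adjusted p 0.0369). Ccr2 was at 0.89 (adjusted p 0.113) without WT replicate 2 and at 1.64 (adjusted p 6.27e-10) without WT replicate 3. Ccr6, the receptor of Ccl20, fell from 52.4 ± 10.8 to 12.4 ± 0.67 CPM (-2.08, adjusted p 7.48e-05), and Ccr10, a receptor for homing to skin, fell from 3.24 ± 0.35 to 1.09 ± 0.33 CPM (-1.57, adjusted p 0.00652). Without WT replicate 3, 4 of these receptors rose and 2 fell, where 26.8% of all genes were called.

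Other chemokine ligands were mostly at low levels. Of 31 on the list, 11 were tested and 4 rose, with none called lower, where 11.9% of all genes were called higher (median log2 fold change 1.25, and 1.70 without WT replicate 3). None of these 4 held 10 counts in all WT samples, so each passed the filter through its KO samples. Ccl20, at 19, 0 and 45 counts in WT and 0, 0 and 4 in KO replicates 1 to 3, was left out by the filter. With no filter, 4 were called higher and 1 lower, so the lack of falls depended on the filter. Cxcl9, which shares the receptor Cxcr3 and lies 18559 bases from Cxcl10, was at 1.09, 0.122 and 0.150 CPM in WT and 2.49, 3.56 and 3.60 CPM in KO (edgeR log2 fold change 2.80, SE 0.76, adjusted p 0.0213). Most of the WT signal of Cxcl9 was in WT replicate 1, and the value was 4.53 (adjusted p 0.00116) without it. Unlike Cxcl10, Cxcl9 was not high in WT replicate 3. Ccl6, which lies between Ccl5 and Ccl3, rose from 0.0998 ± 0.0650 to 1.26 ± 0.18 CPM (log2 fold change 3.63, edgeR adjusted p 0.00251). Ccl24, an eosinophil chemokine, rose from 0.159 ± 0.163 to 2.32 ± 0.17 CPM (3.81, adjusted p 0.00707, and 4.88 with adjusted p 0.00705 without WT replicate 1), and Cxcl3, a neutrophil chemokine, from 0.502 ± 0.425 to 2.40 ± 0.04 CPM (2.25, adjusted p 0.0488, and 0.116 to 0.124 when any single KO sample was left out). Without WT replicate 3, 6 of the 11 rose, where 1862 of 13663 genes tested were called higher.

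Genes beside the ligands on the chromosome were examined to see whether whole regions moved. Of 52 other RefSeq genes within 100 kb of a ligand, 19 were tested and 4 were called (21.1%, against 24.4% of all genes). These were Ccl6, Cxcl9 and Naaa, which rose, and Art3, which fell. Naaa, the gene of a lysosomal amidase, went from 4.55 ± 0.80 to 7.15 ± 1.65 CPM (log2 fold change 0.65, edgeR adjusted p 0.0607). The calls of Naaa and Art3 were lost without KO replicate 1 (0.46, adjusted p 0.223, and -1.68, adjusted p 0.106) or KO replicate 3 (0.68, adjusted p 0.126, and -1.42, adjusted p 0.110), and that of Naaa also without WT replicate 2 (0.52, adjusted p 0.153). None of the tested genes lay within 100 kb of Xcl1.

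Regulators that are known to act on these ligands in lymphocytes were compared from a list of 18 genes, of which 7 rose and none fell, where 11.9% of all genes were called higher (median log2 fold change 0.51). The largest rises were in Tbx21, Eomes and Bhlhe40. Tbx21, which encodes T-bet, a driver of type 1 genes, was at 6.00, 4.99 and 5.53 CPM in WT and 70.8, 74.2 and 68.8 CPM in KO (edgeR log2 fold change 3.69, SE 0.10, adjusted p 1.31e-06). Eomes, a related T-box factor of cytotoxic cells, rose from 2.31 ± 0.81 to 11.3 ± 0.24 CPM (2.29, adjusted p 0.000437), and Bhlhe40, a factor needed for cytokine output, from 131 ± 52.8 to 542 ± 14.2 CPM (2.05, adjusted p 0.000653). The NF-kB subunits on the list were among the 11 not called. Nfkb1 was at 0.25 (edgeR adjusted p 0.0135), under the fold cutoff but with all KO samples above all WT samples, and Rel and Rela were at 0.15 and 0.06 (adjusted p 0.236 and 0.667), with overlap.

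Of 6 inducers, Ifng and Ifngr1 rose and Tnfrsf1b fell, where 24.4% of all genes were called. Ifng, the inducer of Cxcl9 and Cxcl10, was at 3.78, 4.54 and 2.64 CPM in WT and 82.8, 84.7 and 84.4 CPM in KO (edgeR log2 fold change 4.52, SE 0.18, adjusted p 7.11e-06). Thus WT replicate 3, with the highest Cxcl10, had the lowest Ifng of all samples. Ifngr1, the ligand-binding chain of its receptor, rose from 166 ± 60.2 to 389 ± 18.5 CPM (1.23, adjusted p 0.00364), whereas Ifngr2, the signaling chain, was at 57.3 ± 1.14 and 38.8 ± 1.41 CPM and under the fold cutoff (-0.56, adjusted p 0.000775). Tnf had 48.8 ± 7.96 CPM in WT, against 39.6 ± 1.29 CPM in KO (-0.30, adjusted p 0.0907), its receptor Tnfrsf1b fell from 452 ± 67.4 to 172 ± 7.07 CPM (-1.39, adjusted p 0.000108), and Tnfrsf1a was not called (-0.40, adjusted p 0.0635).

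Genes that carry or limit the signal of chemokine receptors were mostly not called. Of 21 tested, 5 fell and none rose (23.8%, against 24.4% of all genes, median log2 fold change -0.09). The falls were in Rgs16, Rgs2 and Rgs10, which turn off G proteins, in Arrb1, a beta-arrestin that desensitizes receptors, and in Plcb2, a phospholipase. Rgs16 fell from 93.4 ± 16.6 to 23.5 ± 3.05 CPM (log2 fold change -1.99, edgeR adjusted p 8.80e-05), and the log2 fold changes were -1.497 for Rgs10 (adjusted p 1.57e-05), -1.29 for Arrb1 (adjusted p 3.23e-05) and -0.85 for Plcb2 (adjusted p 0.00184). Rgs2, at 161 CPM in WT replicate 3 against 39.6 and 41.6 CPM in the other WT samples, had a log2 fold change of -1.57 (adjusted p 0.0443), which was -0.58 without WT replicate 3, just under the fold cutoff. The call of Rgs2 was also lost when any single KO sample was left out (adjusted p 0.122 to 0.126). Of 3 genes that process, store or hold ligands, Dpp4, Srgn and Ccrl2, edgeR called 0, with 1 at an unadjusted p under 0.05, and DESeq2 also called 0, with 2.

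**Figure D5:**
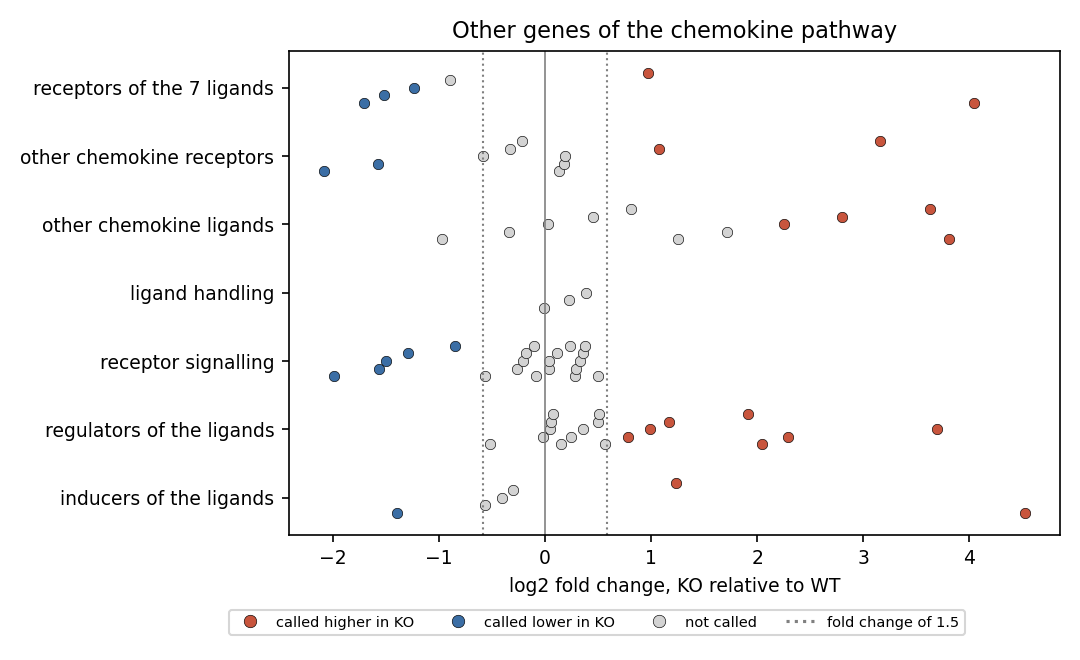
Log2 fold change in KO relative to WT for 75 other genes of the chemokine pathway, by list, with 1 point per gene, red where called higher, blue where called lower and grey where not called. The regulators called are all higher in KO, the receptor signaling genes called are all lower, and of the receptors of the 7 ligands 2 are higher and 3 lower.

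The genes whose pattern over the 6 samples was most like each ligand were sought among 13593 genes. Likeness was the root mean square difference of log2 CPM, centered on each gene. These log2 values used a prior count of 2, which narrows differences for genes near the limit of detection, such as Ccl3 in WT. For Cxcl10 these were Spry2 (0.0728) and Gadd45b (0.137). Spry2, an inhibitor of growth factor signaling, was at 1.11, 0.944 and 5.50 CPM in WT and 3.77 to 3.83 CPM in KO, and Gadd45b, a stress response gene, was at 37.9, 38.0 and 187 CPM in WT and 114 to 116 CPM in KO. Both thus had the high value in WT replicate 3 that Cxcl10 had. For Xcl1 the nearest were Dock1 (0.232) and Hc (0.235), and for Ccl22 Jag1 (0.157) and Popdc2 (0.161). For Ccl1 they were Nid1 (0.344) and Cbfa2t3 (0.353), both lowest in WT replicate 3 as Ccl1 was. Ccl3 was nearest to Ifitm2 (0.158) and Atp8b4 (0.298), and Ccl4 to Bace2 (0.244) and AA467197 (0.255). Ccl5 had 2241 genes within 0.2, the most of any ligand, led by Pja2 (0.0458) and Zcchc7 (0.0464). Small differences with little spread place a gene near many others, so this count does not measure how particular a pattern is.

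Several of these ligands are also made by other cells of lymphoid tissue, such as dendritic cells (Ccl22), macrophages (Cxcl9 and Cxcl10) and NK cells (Xcl1, Ccl3, Ccl4 and Ccl5), so markers of such cells were measured in the sorted samples. Of 8 macrophage and monocyte markers, 7 were tested and 6 were called higher, where 11.9% of all genes were called higher, and their sum was 21.1 to 33.8 CPM in WT and 63.9 to 70.5 CPM in KO. The most abundant in KO were Lyz2 (19.5 CPM), Ly6c2 (15.3) and Itgam (13.2), although T cells can express Ly6c2 and Itgam. Of 10 dendritic cell markers, 9 were tested, of which 5 were called higher and 4 were not called. Their sums were 65.8 to 115.9 CPM in WT and 165 to 188 CPM in KO. Most of this came from Cd74, H2-Aa and H2-Ab1, at 112, 27.4 and 23.1 CPM in KO. The sums thus chiefly give the levels of these 3 genes and not of the list as a whole. The same 11.9% applies to the markers that follow. Of 4 NK cell markers, 3 were tested (Ncr1, Klrb1c and Klre1) and 2 called higher, with sums of 1.87 to 2.64 CPM in WT and 3.80 to 5.98 CPM in KO. Of 7 neutrophil markers, 2 were tested and both were called higher, S100a8 and S100a9, which were at 0 in all WT samples and together at 3.57 to 5.42 CPM in KO. In single-cell data from younger mice, the paper also reports high S100a8 and S100a9 in a dysfunctional Treg subset that was more frequent in KO. Which cells carried these 2 genes in the present samples was not tested. No other marker tested was at 0 in all samples of a group. Calls of Lyz2, H2-Aa and Klrb1c were each lost without at least 4 of the 6 samples in turn. Their part in the ligand results was not tested.

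Markers of B cells and CD8 T cells did not move with the ligands in the same way. The sum of 4 B cell markers was 16.6 to 18.3 CPM in WT and 10.3 to 10.8 CPM in KO, and 1 of them, Cd79b, was called, as lower. The sum of 2 CD8 T cell markers was 9.32 to 13.2 CPM in WT and 12.02 to 12.7 CPM in KO, and Cd8a was called higher (edgeR log2 fold change 0.997, adjusted p 0.0665, and 0.108 to 0.182 without WT replicate 2, KO replicate 1 or KO replicate 3) while Cd8b1 was not called (-0.08). Of 3 platelet markers, Itga2b was tested, at 3.17 to 5.41 CPM in WT and 2.19 to 4.23 CPM in KO. None of the 4 mast cell and basophil markers was analysed here. The 6 Treg and T cell markers summed to 3927 to 5104 CPM in WT and 3309 to 3405 CPM in KO. Of these 6, 2 were called lower and none higher, where 12.5% of all genes were called lower (median log2 fold change -0.43). For 4 of the 6, all KO samples lay below all WT samples, against 27.6% of all genes. Without WT replicate 3, 1 of the 6 was called lower, where 1805 of 13663 genes tested were called lower.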

How the data were processed

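The authors deposited raw counts, whole numbers in a single table of genes by 6 samples. Their methods name SOAPnuke for filtering of reads, HISAT2 for alignment to mm10 (1 alignment kept) and StringTie for quantification. How whole numbers were obtained, the annotation and the use of strand were not stated. The table had 13709 rows with 13680 symbols and a lowest sum of 60, so low genes had been removed.

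Counts were analyzed with R 4.3.3 and edgeR 4.0.16. Genes were kept by filterByExpr (minimum count 10), libraries were scaled by TMM, and the quasi-likelihood F-test compared KO with WT, two-sided, with no covariate. P was adjusted by the Benjamini-Hochberg method over the 13594 genes tested. SE values were taken as the absolute log2 fold change over the root of the F statistic. Expression is CPM per TMM-scaled total. DESeq2 1.42.0 was an alternative. Positions and promoters came from RefSeq GRCm38.p6, the assembly of mm10, and transcript lengths from GENCODE M21. The edgeR and DESeq2 fits were tested on simulated counts. Other alternatives were RLE scaling, library totals alone, no filter, at least 10 counts in every sample, another cutoff, glmTreat, a replicate block, the shortest transcript and leaving out each sample. Intervals and detection limits cover counting error only. No pair of replicates agreed within sampling noise (median chi-square 5.25 to 26.3 times that of counting noise), so each was kept as a sample.

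The 7 ligands and all gene lists were chosen with earlier results of these data known. Genes named are the ligands, their receptors and inducers, the called genes of the other lists (the 3 largest rises and falls where more than 6 were called), called neighbors within 100 kb, the 3 most abundant markers of a list in KO, the 2 genes most like each ligand, and Zfp335. Some listed genes are not reported here. Nfkb1, Rel and Rela were named after their values were seen.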

Additional observations from a re-analysis of the deposited data

How the results depend on the processing

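Ccl3, Ccl4, Ccl1 and Ccl22 were called higher under every alternative that tested them, with log2 fold changes of 5.97 to 7.26, 3.93 to 4.62, 3.56 to 4.65 and 1.27 to 1.92. Requiring at least 10 counts in every sample removed the first 3 from the test, so that 2 ligands were called, 0 of the 2 other chemokine ligands left (0 at an unadjusted p under 0.05 in edgeR), and 2 neighbors. Xcl1 was not called with RLE scaling (-1.32, adjusted p 0.105), with no filter (-1.33, 0.102), at an adjusted p under 0.05 (-1.33), or with glmTreat against a fold change of 1.5 (-1.33, 0.388). Without a fold cutoff, 5244 genes, 14 receptor signaling genes and 12 regulators passed an adjusted p under 0.05, and glmTreat called 1686 genes and 2 neighbors. With the shortest transcript, the KO level of Cxcl10 was 16.2 CPM per kilobase.

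Leaving out 1 sample at a time gave 2867 to 3667 called genes, 4 to 6 called ligands, 2 to 5 called neighbors, and log2 fold changes of -1.72 to -1.03 for Xcl1 and 0.041 to 1.76 for Cxcl10. The neighbors called were 2 without KO replicate 1 or KO replicate 3. Direction changed for Il2ra (-0.21 to 0.077), Pax5 (-0.42 to 0.10), Cd79a (-0.028 to 0.65) and Cd8b1 (-0.15 to 0.070). The cause was not tested. The mean WT levels without WT replicate 3 were an alternative chosen after seeing the data.

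Samples that share a replicate number did not deviate together (correlations of 0.038, 0.040 and -0.012 for numbers 1 to 3), and WT replicate 3 correlated best with KO replicate 2. With the replicate block, 3190 genes were called, and Xcl1 was at -1.22 (adjusted p 0.141). Of 65 other named genes, 44 kept their direction and call throughout. With WT levels of 1 to 11 counts, the size of the rise of Ccl3, Ccl4 and Ccl1 was limited by depth.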

Other observations

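Further genes of the pathway had a value in WT replicate 3 far from WT replicates 1 and 2, and they are named here after their values were seen. Cxcl2, a neutrophil chemokine, was at 0.163, 0.183 and 2.16 CPM in WT replicates 1 to 3 and at 1.92 to 2.07 CPM in KO. Cx3cl1, the ligand of Cx3cr1, was at 0.462, 0 and 6.31 CPM in WT and at 1.05 to 1.29 CPM in KO. Cxcr4, the receptor of Cxcl12, was at 32.9, 32.1 and 177 CPM in WT and at 51.8 to 54.7 CPM in KO. None of these was called over all 6 samples (edgeR log2 fold changes 1.25, -0.97 and -0.59, adjusted p 0.307, 0.594 and 0.492). Without WT replicate 3, all 3 were called higher in KO, Cxcl2 at 3.50 (adjusted p 6.97e-05), Cx3cl1 at 2.25 (adjusted p 0.0381) and Cxcr4 at 0.72 (adjusted p 1.38e-06), so Cx3cl1 and Cxcr4 changed sign. Cxcl3 went the other way, at 0.625, 0.852 and 0.0300 CPM in WT replicates 1 to 3.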
